A study of Mus musculus with 30 samples.

Results

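RNA of 10 genes that mark the subfields of the mouse hippocampus was followed over 30 libraries. They were Prox1, C1ql2 and Dsp for the dentate gyrus, Wfs1, Fibcd1 and Pou3f1 for CA1, and Amigo2, Rgs14, Bok and Grik4 for CA2 and CA3. They were picked by name, and all 10 were among the 21412 genes counted. The mice were male BALB/c mice, with 5 separate mice in each of 6 groups. Ctr mice received feed without added methylmercury (MeHg), LD mice a low dose of 0.28 mg and HD mice a high dose of 5 mg per kg feed. These mice were 2 to 3 weeks old on arrival and were fed for 11 weeks. The Se_Ctr, Se_LD and Se_HD mice carry labels of selenium combined with control, low dose or high dose feed, and their age, doses and feeding time are not given in the sources used here. All groups share the strain, the sex and the dissection of whole hippocampus. In such bulk RNA, fewer cells of a type and less RNA per cell cannot be told apart.

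The hippocampus is built as a chain of excitatory cell layers. Granule cells of the dentate gyrus send mossy fibres to CA3, CA3 pyramidal cells project to CA1, and CA2 lies between CA3 and CA1. Each layer keeps its own set of expressed genes in adult life, so the level of a layer's marker in whole tissue follows how much of that layer the tissue holds and how strongly its cells express the gene. Prox1 encodes a homeodomain transcription factor that keeps granule cells distinct from CA3 pyramidal cells. Wfs1 encodes the endoplasmic reticulum protein wolframin, and Rgs14 a regulator of G protein signalling known to limit plasticity in CA2.

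Each library held from 5768208 to 11510521 counted reads, with a median of 9351470. A pair of libraries, Ctr mouse 2 and HD mouse 2, stood apart. In Ctr mouse 2, the shallowest library, the mitochondrial ribosomal RNA mt-Rnr2 was at 482696 normalized read counts, against at most 170619 in the other libraries. In HD mouse 2 the astrocyte filament gene Gfap was at 32820 normalized counts, against at most 12446 elsewhere, and the summed level of 6 excitatory neuron genes (Camk2a, Slc17a7, Neurod6, Neurod2, Nrgn and Rbfox3) was the lowest of the 30 libraries, at 33321 against 44936 or more. Each comparison of HD or Ctr mice was therefore also made without these 2 mice. The excitatory neuron genes were present in every library, led by Camk2a at 20087 to 52887 normalized counts. Genes of neighbouring tissue were present too. Transthyretin, Ttr, the main product of the choroid plexus, ranged from 96.3 to 34026 normalized counts between mice, and the thalamic gene Tcf7l2 from 53.7 to 558.

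The members differed widely in level per kilobase of exon. Wfs1 was highest, at 389 ± 83.4 normalized counts per kb (SD, n = 30), and it was above Prox1, the next gene, in 29 of 30 mice. Prox1 followed at 202 ± 48.1 per kb (SD, n = 30), Rgs14 at 185 ± 27.4 and Fibcd1 at 166 ± 36, and these 3 were not separated by the spread between mice, since Prox1 was above Rgs14 in 17 of 30 mice and Rgs14 above Fibcd1 in 20. Bok was at 130 ± 39.2 per kb and Grik4 at 80.1 ± 13.4, and Bok was above Grik4 in 28 of 30 mice. C1ql2, at 53.6 ± 14.4 per kb, and Amigo2, at 51.7 ± 10.8, were not separated either, with C1ql2 above Amigo2 in 16 of 30 mice. Dsp was at 38.4 ± 11.5 per kb.

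Pou3f1, a POU domain transcription factor gene with a single exon (chr4:124334896-124337899, plus strand, NCBIM37), was close to absent from the counts, at 0.299 ± 0.356 normalized counts per kb (SD, n = 30). It had 0 reads in 12 of 30 libraries and 29 reads in all. A count of 5 was the highest in any library. In the annotation of the same build, 3003 of its 3004 exon bases are shared with a second Pou3f1 entry, a pseudogene on the same strand, and the part of this overlap in the low count was not tested. The level of Pou3f1 is thus uncertain, and the differences are given for the other 9 members. For these, the counting error of a library was 2.79% for Wfs1 to 10.1% for C1ql2, while the coefficient of variation between mice of a group was 16% for Rgs14 to 30% for Dsp. The spread between mice was for each of the 9 genes larger than the error of counting, by 21.8% against 2.79% for Wfs1 and 27.3% against 10.1% for C1ql2.

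**Figure D1:**
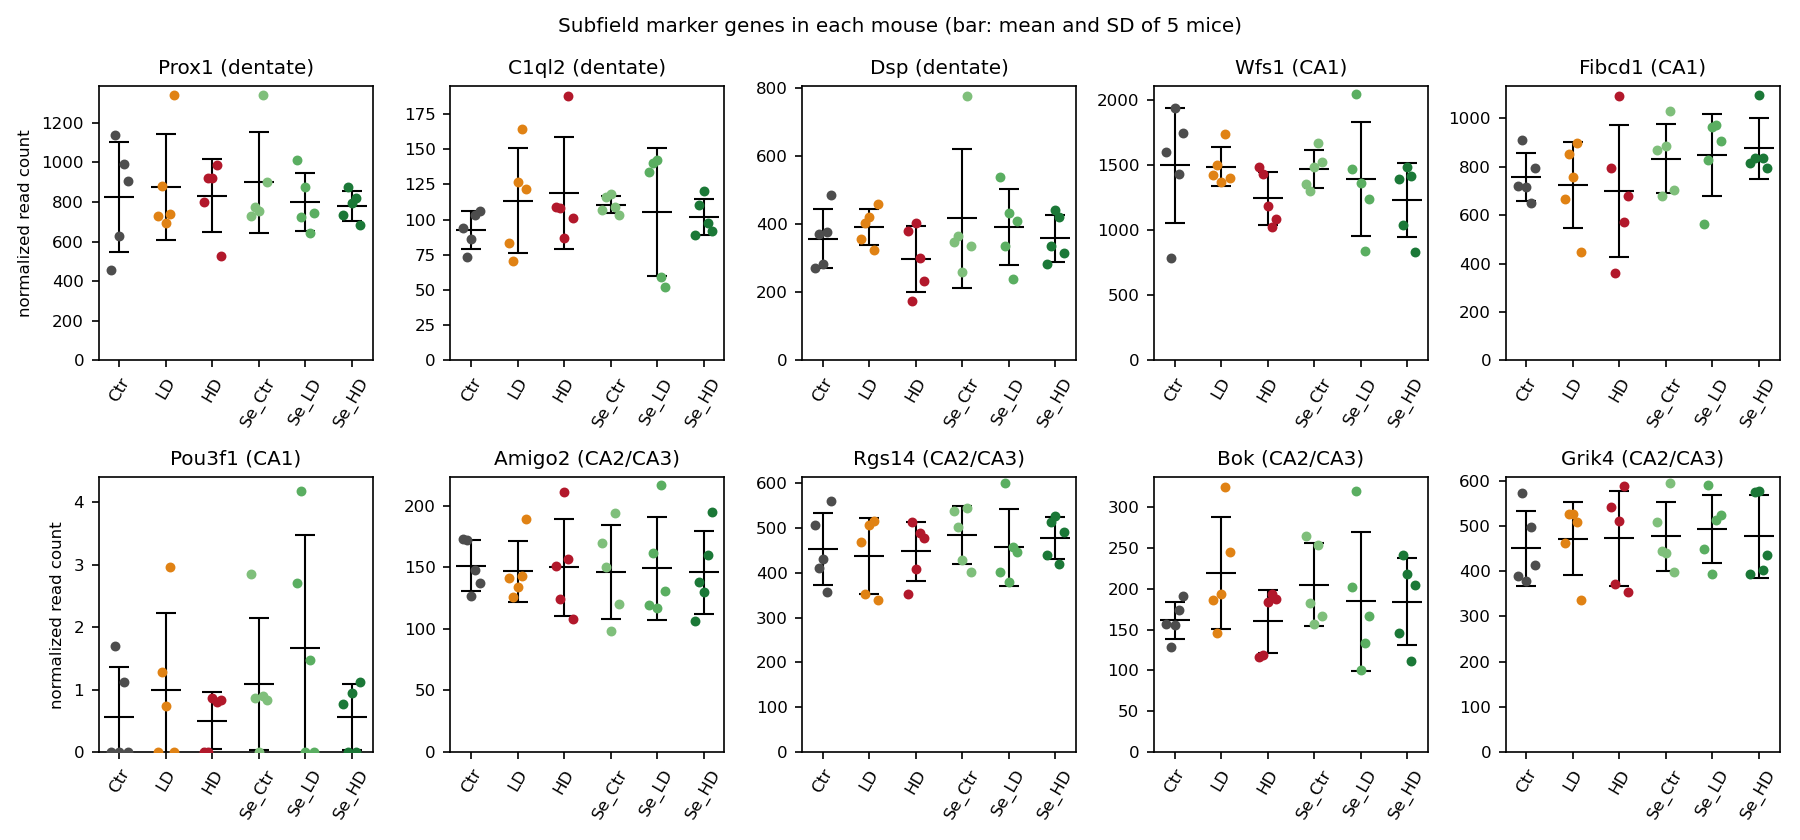
Normalized read count (y axis, linear, from 0) of each of the 10 genes in every mouse of the 6 groups (x axis). Points are mice in the order 1 to 5, and bars give the mean and SD of 5 mice, with lower arms cut at 0 for Pou3f1. Ranges overlap between all groups for every gene, and single mice lie far from their group, such as Dsp at 776 in Se_Ctr mouse 4.

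No dentate gene passed the adjusted threshold in a comparison of groups by limma. In HD against Ctr mice the 95% interval of the log2 fold change was -0.41 to 0.51 for Prox1, -0.70 to 0.11 for Dsp and -0.14 to 0.77 for C1ql2, so a difference was not excluded. Prox1 (chr1:191945660-191994559, minus strand, NCBIM37) was at 459, 1138, 627, 992 and 907 normalized counts in Ctr mice 1 to 5, at 727, 880, 694, 739 and 1339 in LD mice, and at 802, 921, 919, 988 and 525 in HD mice. With selenium, Prox1 was at 731, 772, 755, 1341 and 900 in Se_Ctr mice, at 1014, 723, 873, 643 and 742 in Se_LD mice, and at 734, 875, 794, 821 and 682 in Se_HD mice. The lowest value of all was a control, Ctr mouse 1, and the highest were LD mouse 5 and Se_Ctr mouse 4, so the range of Ctr mice held that of HD mice. The group means ran from 781 ± 75 in Se_HD mice to 900 ± 255 in Se_Ctr mice (SD, n = 5).

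Dsp (chr13:38243197-38290446, plus strand, NCBIM37) encodes desmoplakin, a protein of desmosomal junctions. It was at 273, 371, 284, 376 and 486 normalized counts in Ctr mice 1 to 5, at 357, 403, 421, 325 and 459 in LD mice and at 381, 175, 403, 301 and 232 in HD mice. In the selenium groups Dsp was at 349, 365, 260, 776 and 336 in Se_Ctr mice, at 540, 336, 434, 240 and 411 in Se_LD mice and at 283, 335, 441, 421 and 315 in Se_HD mice. HD mice 2 and 5 were below every Ctr mouse, the other HD mice were within the Ctr range, and the single highest value belonged to Se_Ctr mouse 4, which also had the highest Prox1. HD mice had the lowest mean of Dsp, at 299 ± 96.4 (SD, n = 5), and Se_Ctr mice the highest, at 417 ± 205.

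C1ql2 (chr1:122237159-122239748, plus strand, NCBIM37) encodes a secreted C1q-like protein of mossy fibre synapses. It ranged from 73.2 to 106 normalized counts in Ctr mice, from 70.8 to 164 in LD mice, from 87.2 to 188 in HD mice, from 103 to 118 in Se_Ctr mice, from 51.8 to 142 in Se_LD mice and from 89.2 to 120 in Se_HD mice. In 4 of the 5 Se_Ctr mice and 3 of the 5 HD mice C1ql2 was above the highest Ctr mouse, while the lowest Se_Ctr and HD mice were within the Ctr range. The Se_LD mice fell into 3 values of 134 to 142 and 2 of 51.8 and 59.1.

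Prox1 and Dsp had the highest correlation of all member pairs between mice of the same group, as described further on, and their promoter sequences are shown for that reason. The 250 bases before each annotated start site were taken from RefSeq on build GRCm38.p6, which is a later build than that of the counts, and the windows end before the transcribed sequence. Capitals mark CANNTG, the E-box that basic helix-loop-helix factors of granule cells such as Neurod1 and Neurod2 can bind. It was searched on both strands, which for this palindromic motif give the same positions, and hits may overlap.
Prox1, first start site (chr1:190170828-190171077, minus strand): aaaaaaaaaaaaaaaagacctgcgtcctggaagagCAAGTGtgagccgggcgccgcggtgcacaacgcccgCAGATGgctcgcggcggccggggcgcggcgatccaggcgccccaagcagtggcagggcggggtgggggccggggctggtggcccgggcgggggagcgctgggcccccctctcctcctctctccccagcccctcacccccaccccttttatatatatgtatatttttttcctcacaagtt
Prox1, second start site (chr1:190169516-190169765, minus strand): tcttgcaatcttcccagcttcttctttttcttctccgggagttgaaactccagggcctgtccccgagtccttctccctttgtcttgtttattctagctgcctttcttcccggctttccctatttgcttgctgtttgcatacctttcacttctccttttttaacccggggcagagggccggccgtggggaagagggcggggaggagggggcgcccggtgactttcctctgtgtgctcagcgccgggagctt
Dsp (chr13:38151044-38151293, plus strand): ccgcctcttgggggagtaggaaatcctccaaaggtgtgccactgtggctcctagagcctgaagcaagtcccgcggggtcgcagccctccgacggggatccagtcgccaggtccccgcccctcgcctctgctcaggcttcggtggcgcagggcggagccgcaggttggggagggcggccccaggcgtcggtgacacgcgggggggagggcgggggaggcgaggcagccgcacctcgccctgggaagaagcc
The first Prox1 window held 2 matches, CAAGTG and CAGATG, and the second Prox1 window and the Dsp window held 0. Of the 10 members, 8 had a window in the table (all but Pou3f1 and Rgs14), with 9 windows between them, of which 3 (33.3%) held CANNTG, against 66.2% of all 32851 windows of the same length. The C1ql2 window held CACTTG and the Wfs1 window CATCTG. The members' windows were rich in G and C, from 55.2% for Bok to 84% for Amigo2, against a median of 52.4% over all windows. The presence or absence of these letters says nothing of binding.

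Wfs1 (chr5:37357343-37380221, minus strand, NCBIM37), the most abundant member, had its lowest group means in the 2 high dose groups. It was at 1602, 783, 1935, 1429 and 1744 normalized counts in Ctr mice 1 to 5, at 1420, 1501, 1367, 1740 and 1400 in LD mice, and at 1482, 1430, 1188, 1027 and 1087 in HD mice. In the selenium groups it was at 1354, 1298, 1485, 1666 and 1523 in Se_Ctr mice, at 1470, 2042, 1363, 841 and 1239 in Se_LD mice, and at 1391, 1038, 1487, 1415 and 833 in Se_HD mice. Ctr mouse 2 was the lowest of all 30 mice for this gene. The other 4 Ctr mice were at 1429 to 1935, and below all of these were 3 of the 5 LD, 3 of the 5 HD, 2 of the 5 Se_Ctr, 3 of the 5 Se_LD and 4 of the 5 Se_HD mice, so this was not particular to the high dose. With Ctr mouse 2 counted, no mouse was below the Ctr range. The means were 1499 ± 441 in Ctr, 1486 ± 151 in LD, 1243 ± 204 in HD, 1465 ± 145 in Se_Ctr, 1391 ± 435 in Se_LD and 1233 ± 283 in Se_HD mice (SD, n = 5).

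Fibcd1 (chr2:31668810-31701525, minus strand, NCBIM37) encodes a membrane receptor with a fibrinogen-like domain. It was at 721, 909, 714, 648 and 793 normalized counts in Ctr mice 1 to 5, at 665, 850, 759, 896 and 449 in LD mice, and at 795, 363, 1093, 571 and 677 in HD mice. With selenium it was at 870, 679, 884, 1028 and 704 in Se_Ctr mice, at 562, 827, 965, 973 and 907 in Se_LD mice, and at 813, 834, 1096, 837 and 794 in Se_HD mice. HD mice 2, 4 and 5 were below every Se_HD mouse, HD mouse 1 was level with the lowest, and HD mouse 3 was close to the highest, so the groups overlapped. The lowest value belonged to HD mouse 2. Means were between 700 ± 271 in HD mice and 875 ± 125 in Se_HD mice (SD, n = 5), and the 3 selenium groups had the 3 highest means.

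Of the CA2 and CA3 genes, Bok (chr1:95582271-95592339, plus strand, NCBIM37), a member of the Bcl2 family, was the most variable. It was at 157, 129, 155, 174 and 191 normalized counts in Ctr mice 1 to 5, at 186, 146, 194, 325 and 245 in LD mice, and at 116, 119, 184, 193 and 188 in HD mice. With selenium, Bok was at 265, 182, 157, 254 and 167 in Se_Ctr mice, at 202, 320, 100, 133 and 167 in Se_LD mice, and at 146, 241, 218, 112 and 204 in Se_HD mice. LD mice 3, 4 and 5 were above all Ctr mice, and LD mice 1 and 2 were within the Ctr range. The mean was 161 ± 22.8 in Ctr and 219 ± 69.1 in LD mice (SD, n = 5).

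Amigo2 (chr15:97074505-97077718, minus strand, NCBIM37), which encodes an adhesion protein, ranged from 127 to 173 normalized counts in Ctr mice, 126 to 189 in LD, 108 to 211 in HD, 98.5 to 194 in Se_Ctr, 117 to 217 in Se_LD and 106 to 195 in Se_HD mice. Its 6 group means lay between 146 and 151. Rgs14 (chr13:55471093-55486048, plus strand, NCBIM37) had the smallest spread between mice, with group means from 437 ± 84.6 in LD to 484 ± 64.7 in Se_Ctr mice (SD, n = 5) and single mice between 340 and 600. Grik4 (chr9:42326218-42752576, minus strand, NCBIM37), which encodes a kainate receptor subunit that is abundant in CA3, had means from 450 ± 82.8 in Ctr to 494 ± 75 in Se_LD mice, and single mice between 335 and 594. For all 3 genes the ranges of the groups overlapped in every comparison.

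The question of the design was whether MeHg, selenium or both moved these markers. Each comparison was fitted with limma on the log2 of the normalized count plus 1 over all genes, and p-values were adjusted for all genes in the fit by the method of Benjamini and Hochberg. An unadjusted p is used to count genes under 0.05, to order or name genes and to mark points in figures. All counts out of 10 members include Pou3f1, whose few reads allow no statement on a difference. In HD against Ctr mice, 0 of 10 members had an unadjusted p under 0.05, where 8.34% of all genes tested had one, and 0 had an adjusted p under 0.05, where 0.13% did. edgeR and DESeq2 also gave 0 members at an unadjusted p under 0.05. The log2 fold changes of the 9 members ran from -0.30 for Dsp (SE 0.19, adjusted p = 0.754) to 0.32 for C1ql2 (SE 0.22, adjusted p = 0.775), with a median over the 10 of -0.02 against 0.01 over all genes. The 95% confidence intervals of the 9 genes lay between -0.70 and 0.77, so a change by more than these bounds was not in any interval.

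Leaving out mice moved these values. When single mice were left out, Prox1 ran from -0.14 to 0.21, C1ql2 from 0.14 to 0.41 and Fibcd1 from -0.38 to 0.02, each with an unadjusted p over 0.05, and for Wfs1 and Dsp the unadjusted p crossed 0.05. Wfs1 differed by -0.22 between HD and Ctr mice (SE 0.18, 95% interval -0.59 to 0.15, adjusted p = 0.807). Without Ctr mouse 2 it differed by -0.44 (95% interval -0.69 to -0.18, adjusted p = 0.166), and without both Ctr mouse 2 and HD mouse 2 by -0.49 (95% interval -0.75 to -0.24, adjusted p = 0.169). In these 4 against 4 mice the ranges still overlapped, with HD mice at 1027 to 1482 and Ctr mice at 1429 to 1935. Both had an unadjusted p under 0.05, and the adjusted p did not pass the threshold under any alternative. Dsp went the other way. Its difference of -0.30 became -0.10 without the same 2 mice and -0.12 without HD mouse 2 alone, and it was -0.42 (unadjusted p under 0.05, adjusted p = 0.516) without HD mouse 3.

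In LD against Ctr mice, 0 of 10 members had an unadjusted p under 0.05 by limma, against 3.01% of all genes, and 0 had an adjusted p under 0.05, against 0% of all genes. Bok came nearest, with a log2 fold change of 0.40 (SE 0.19, 95% interval -0.00 to 0.80, adjusted p = 0.999). edgeR gave 0.45 and DESeq2 0.44 for Bok, each with an adjusted p of 1, so both tools counted 1 member at an unadjusted p under 0.05. Without LD mouse 4, which had the highest Bok count of the series, the difference was 0.24 (95% interval -0.14 to 0.63), and without LD mouse 2, the lowest of that group, it was 0.53 (95% interval 0.14 to 0.93). The unadjusted p was under 0.05 without LD mouse 2, without LD mouse 1 (0.45), without Ctr mouse 5 (0.46), and with sets of 6 consecutive library numbers as a block (0.40), and the adjusted p was 0.999 or 1 in each. The other 8 members ran from -0.10 to 0.24.

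Within the selenium groups no member passed the test. In Se_HD against Se_Ctr mice, 0 of 10 members had an unadjusted p under 0.05, against 4.19% of all genes, and 0 an adjusted one, against 0% of all genes. Wfs1 had the lowest p, with -0.28 (SE 0.17, 95% interval -0.64 to 0.09, adjusted p = 1). In Se_LD against Se_Ctr mice it was 0 of 10 members, against 3.31% of all genes at the unadjusted and 0% at the adjusted threshold, and Prox1 had the lowest p, with -0.15 (SE 0.14, adjusted p = 1). edgeR and DESeq2 gave 0 members in both comparisons. The intervals of the 9 members stayed between -0.75 and 0.44 over the 2 comparisons.

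The last set of comparisons set each selenium group against the group of the same dose without selenium, in a fit over all 30 libraries. In Se_Ctr against Ctr mice, 0 of 10 members had an unadjusted p under 0.05, against 4% of all genes, with 0% of all genes and 0 members at the adjusted threshold, and the 9 members ran from -0.07 for Amigo2 to 0.32 for Bok. In Se_LD against LD mice it was 0 of 10, against 2.86% unadjusted and 0% adjusted over all genes, with Bok lowest at -0.31 (SE 0.24, adjusted p = 1). In Se_HD against HD mice, 1 of 10 members had an unadjusted p under 0.05, against 8.38% of all genes, and 0 an adjusted p under 0.05, against 0.327% of all genes. That member was Fibcd1, with 0.40 (SE 0.20, 95% interval 0.00 to 0.80, adjusted p = 0.591). edgeR and DESeq2 gave 0 members in all 3 of these comparisons. Without HD mouse 2, whose Gfap level stood apart, Fibcd1 differed by 0.19 (adjusted p = 0.87), and without HD mouse 3 by 0.59 (adjusted p = 0.168). The comparisons of HD with Ctr and of Se_HD with HD share the HD mice, so their values are not independent.

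Whether the effect of a dose differed between the diets was tested as an interaction. For the high dose, 0 of 10 members had an unadjusted p under 0.05, against 4.77% of all genes, with 0% of all genes at the adjusted threshold, and the lowest p belonged to C1ql2, at -0.44 (SE 0.33, adjusted p = 0.997). For the low dose it was 0 of 10, against 3.75% unadjusted and 0% adjusted over all genes, and the lowest p belonged to Bok, at -0.63 (SE 0.34, 95% interval -1.32 to 0.06, adjusted p = 0.998). In the F test over the 6 groups 0 of 10 members had an unadjusted p under 0.05, against 6.91% of all genes, and 0 an adjusted one, against 0.444%. The p-values of that test ran from 0.3 for Fibcd1 to 0.999 for Amigo2. edgeR and DESeq2 gave 0 members in these 3 tests as well.

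**Figure D2:**
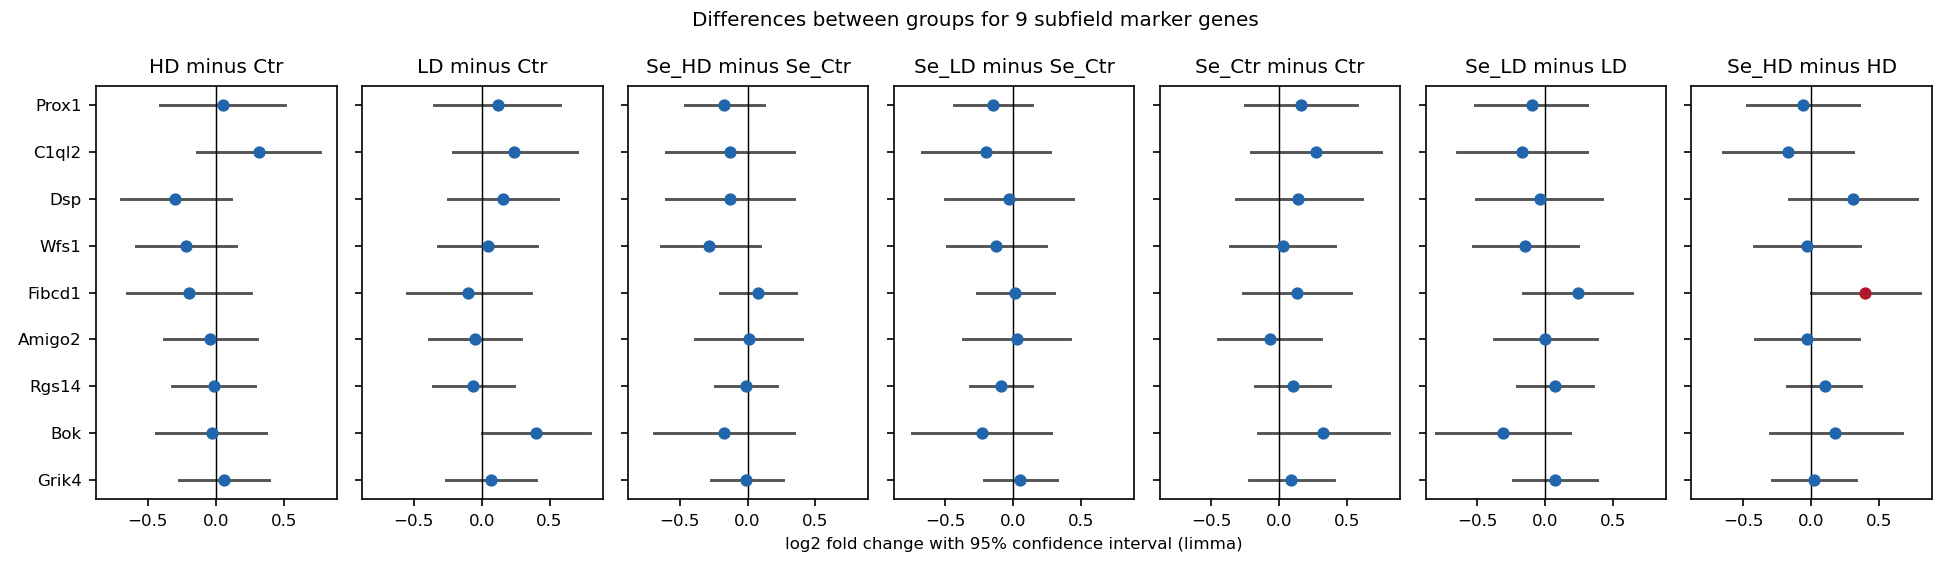
Log2 fold change (x axis) with its 95% confidence interval from limma for 9 members (y axis) in 7 comparisons between groups, with Pou3f1 left out. Red marks an unadjusted p under 0.05, which 1 value has, Fibcd1 at 0.40 in Se_HD minus HD, and the other intervals include 0.

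**Figure D3:**
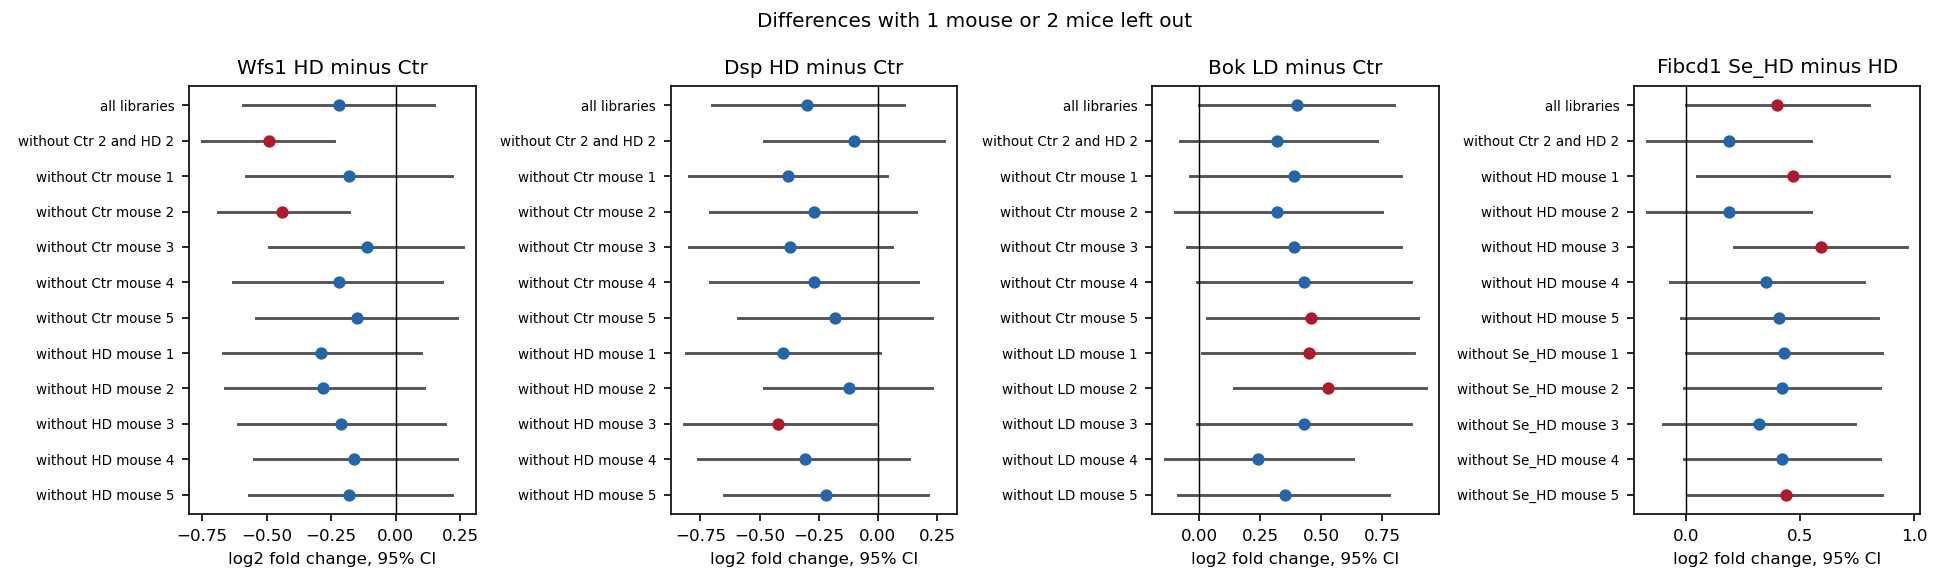
A choice of 4 differences whose unadjusted p crossed 0.05 when single mice were left out, as log2 fold change (x axis) with 95% confidence interval, for all libraries and with the named mice left out (y axis). Red marks an unadjusted p under 0.05. Wfs1 in HD minus Ctr went from -0.22 to -0.44 without Ctr mouse 2, and Fibcd1 in Se_HD minus HD from 0.40 to 0.19 without HD mouse 2.

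Further marker genes of the same subfields were read beside the members. Their counts stand beside the share of all genes with an unadjusted p under 0.05, which was 8.34% in HD against Ctr, 3.01% in LD against Ctr, 4.19% in Se_HD against Se_Ctr and 8.38% in Se_HD against HD mice. Of 9 dentate granule cell genes (among them C1ql3, Tdo2, Stxbp6, Lct, Plk5, Trpc6, Glis3 and Dock10), 0 had an unadjusted p under 0.05 in HD against Ctr mice, and their median log2 fold change was -0.04. Stxbp6 was the most abundant of them, at a mean of 889 normalized counts. Of 8 CA1 genes (among them Mpped1, Man1a, Spink8, Ndst4, Lefty1, Gpr161 and Pex5l), 3 were lower in HD than in Ctr mice at an unadjusted p under 0.05 and 0 were higher, with a median of -0.21 against 0.01 over all genes. None passed at the adjusted threshold. They included Mpped1 at -0.40 (adjusted p = 0.266) and Pex5l, the most abundant gene of the list, at -0.27 (adjusted p = 0.58).

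Mpped1 was at 1448 ± 214 normalized counts in Ctr, 1099 ± 194 in HD and 1332 ± 215 in Se_HD mice (SD, n = 5). The summed level of the 8 CA1 genes was 4102 to 5327 in Ctr, 3277 to 4483 in HD and 3838 to 4939 in Se_HD mice. Without Ctr mouse 2 and HD mouse 2 the count was again 3 of 8, now with Man1a and Mpped1 among them, and the median -0.14. In Se_HD against HD mice 2 of the 8 were higher, Man1a by 0.35 (adjusted p = 0.378) and Mpped1 by 0.28 (adjusted p = 0.569), and without the 2 mice 1 was, Man1a. In Se_HD against Se_Ctr mice 0 of the 8 had an unadjusted p under 0.05, with a median of -0.09, while in LD against Ctr mice Spink8 was higher by 0.37 (adjusted p = 0.999).

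Of 7 CA2 genes (Pcp4, Cacng5, Map3k15, Necab2, Sostdc1, Avpr1b and Srl), 0 had an unadjusted p under 0.05 in HD against Ctr mice, and in LD against Ctr mice 1 did, Pcp4 at 0.45 (adjusted p = 0.999), with a list median of 0.30. Without Ctr mouse 2 and HD mouse 2 the latter count was 0, with a median of 0.26. Of 6 CA3 genes (Iyd, Pvrl3, St18, Cdh24, Spock1 and Hs3st4), 1 had an unadjusted p under 0.05 in HD against Ctr mice, Iyd at 1.08 (adjusted p = 0.476), and its mean level was 6.38 normalized counts. Without the same 2 mice it was 2 of 6, Iyd and Pvrl3. Iyd was also higher in Se_Ctr than in Ctr mice, by 1.13 (SE 0.36). There 1 of 6 CA3 genes had an unadjusted p under 0.05, against 4% of all genes, and 0 had an adjusted one. The most abundant genes of these lists were Necab2, at a mean of 393, and Spock1, at 1852.

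Genes of microglia and reactive astrocytes were higher in HD than in Ctr mice. The share of all genes was again 8.34% at the unadjusted and 0.13% at the adjusted threshold, and in Se_HD against HD mice 8.38% and 0.327%. In HD against Ctr mice all 9 microglia genes (C1qa, C1qb, C1qc, Csf1r, Tyrobp, Cx3cr1, P2ry12, Aif1 and Itgam) were higher at an unadjusted p under 0.05, 5 of them at the adjusted threshold (1 without Ctr mouse 2 and HD mouse 2, where all 9 were again higher), and their summed level was 2333 to 2602 in Ctr and 2957 to 7331 in HD mice. All 4 reactive astrocyte genes (Gfap, Vim, C4b and Serpina3n) were higher, 2 of them at the adjusted threshold (3 of 4 without these 2 mice, again 2 of them adjusted), with summed levels of 2629 to 3231 in Ctr and 5872 to 42686 in HD mice. In Se_HD mice the sums were 2441 to 2873 and 3655 to 4584, and in Se_HD against Se_Ctr mice 0 of 9 microglia genes (median 0.08) and 2 of 4 reactive astrocyte genes had an unadjusted p under 0.05 by limma, 0 of them adjusted. Of 6 inhibitory neuron genes, 2 were lower in HD mice at an unadjusted p under 0.05, Gad1 by -0.45 (adjusted p = 0.0695) and Pvalb by -0.59 (adjusted p = 0.414), and 2 of 5 neocortex genes, Tbr1 by -0.64 (adjusted p = 0.174) and Lamp5, listed as 6330527O06Rik, by -0.59 (adjusted p = 0.411). The neocortex sum was 1547 to 2439 in Ctr and 1133 to 2324 in HD mice, and no gene of that list was at 0 in any mouse. In the same comparison 1 of 7 choroid plexus genes was higher, Folr1 by 1.76 (adjusted p = 0.598), and none of 6 excitatory neuron, 5 oligodendrocyte, 6 thalamic, 6 striatal and 4 erythrocyte genes had an unadjusted p under 0.05 by limma. In Se_HD against HD mice 8 of 9 microglia genes were lower, 7 of them at the adjusted threshold, and all 4 reactive astrocyte genes, 2 of them adjusted. Without Ctr mouse 2 and HD mouse 2 it was 8 microglia genes, 5 of them adjusted, and 3 reactive astrocyte genes, 1 of them adjusted. The inhibitory neuron gene Gad1 was higher in Se_HD than in HD mice by 0.42 (adjusted p = 0.016), and passed the adjusted threshold without the 2 mice as well. In the interaction for the high dose, 8 of 9 microglia and 3 of 4 reactive astrocyte genes were negative at an unadjusted p under 0.05. Without the 2 mice it was 7 and 3. Gad1 was positive there, at 0.49 (adjusted p = 0.282). None of these passed the adjusted threshold, and the shares of all genes were 4.77% unadjusted and 0% adjusted. In LD against Ctr mice 1 of 6 thalamic and 1 of 6 excitatory neuron genes were higher and 1 of 4 erythrocyte genes lower. The share of all genes was 3.01% at the unadjusted threshold. Without Ctr mouse 2 and HD mouse 2 these counts were 0, 0 and 1. In Se_LD against Se_Ctr mice 3 of 6 thalamic genes were higher (median 0.77), against 3.31% of all genes. None of these genes passed the adjusted threshold, which 0% of all genes passed in both comparisons. The part of these cells and of the dissection in the values of the members and subfield lists was not tested.

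With the group means removed, each member was compared with marker genes over single mice. The correlations that follow are across 30 mice on the log2 scale, with p-values from 100000 permutations of mice within their groups. The points share tissue, library preparation and base composition. This was done with the mean of 14 marker lists that held none of the members, which gave 140 correlations, of which 22 had an unadjusted p under 0.05 and 5 an adjusted one over the 140. Genes with a mean under 10 normalized counts were left out of these means, which removed Iyd from the CA3 list and Gbx2 from the thalamic list and left 5 genes in each.

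Grik4 followed the other CA3 genes most closely, with r = 0.87 (permutation p = 1e-05, the smallest that the permutations can give, adjusted p = 0.0014) and rho = 0.84 (permutation p = 2e-05), and r was 0.88 without the 2 mice farthest from the median. Dsp followed the dentate list with r = 0.81 (permutation p = 4e-05, adjusted p = 0.0028), rho = 0.77 (permutation p = 5e-05) and r = 0.73 without the 2 farthest mice. Prox1 followed the same list with r = 0.68 (permutation p = 0.00098, adjusted p = 0.0274), rho = 0.69 (permutation p = 0.00057) and r = 0.63 without the 2 farthest mice. The dentate list had rank 1 of the 14 lists for Dsp and Prox1, and the CA3 list had rank 1 for Grik4. The CA2 list, which is also of the subfields that Grik4 marks, had rank 6 for it (r = 0.18). With their rank 1 lists, r of these 3 genes stayed between 0.75 and 0.87 without Ctr mouse 2 and HD mouse 2. C1ql2 did not share this behaviour, with r = 0.27 to the dentate list (permutation p = 0.15, adjusted p = 0.511), rho = 0.33 (permutation p = 0.0965) and r = 0.42 without the 2 farthest mice.

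Wfs1 and Fibcd1 each had r = 0.48 with the CA1 list, with permutation p-values of 0.0201 and 0.023 that did not pass adjustment (adjusted p = 0.235 for both), and rho of 0.56 and 0.48 (permutation p = 0.00834 and 0.0147). Their r was 0.42 without the 2 farthest mice and 0.56 and 0.51 without Ctr mouse 2 and HD mouse 2. The CA1 list had rank 1 of 14 for Fibcd1 and rank 3 for Wfs1, which followed the excitatory neuron list (r = 0.49) and the striatal list (r = 0.48, permutation p = 0.0298, adjusted p = 0.235) as closely. Pou3f1, at its few reads, had r = -0.18 with the CA1 list, the last of the 14. Amigo2 had r = 0.43 with CA3 (permutation p = 0.0366, adjusted p = 0.244) and 0.28 with CA2. Rgs14 and Bok had r = 0.30 and 0.34 with the CA2 list, which had rank 3 of 14 for both. With the CA3 list Rgs14 had r = 0.10, at rank 8, and Bok r = 0.32, at rank 4. The highest r was with the reactive astrocyte list for Rgs14, at 0.38 (permutation p = 0.027, adjusted p = 0.235), and with the excitatory neuron list for Bok, at 0.61 (permutation p = 0.00368, adjusted p = 0.0736). The CA2 list held Sostdc1, which the choroid plexus also expresses and which ranged from 0 to 672 normalized counts, and without it r was 0.54 for Rgs14 and 0.68 for Bok, values given with no test since the list was changed after they were seen.

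There were also 2 negative relations that passed adjustment. Prox1 was low where the inhibitory neuron genes (Gad1, Gad2, Slc32a1, Pvalb, Sst and Vip) were high, with r = -0.68 (permutation p = 0.00054, adjusted p = 0.0189), rho = -0.62 (permutation p = 0.00088) and r = -0.55 without the 2 farthest mice. Fibcd1 ran against striatal genes (6 genes, among them Drd1a, Drd2, Adora2a, Rgs9 and Pde10a), with r = -0.58 (permutation p = 0.00011, adjusted p = 0.00513), rho = -0.67 (permutation p = 4e-05) and r = -0.65 without the 2 farthest mice. Fibcd1 also had r = -0.49 with the microglia list and -0.53 with the reactive astrocyte list, which became 0.11 and 0.05 without the 2 farthest mice, so both rested on those mice. Of the other members, Dsp had r = -0.49 with the microglia list (permutation p = 0.0132, adjusted p = 0.206), which was -0.28 without the 2 farthest mice, and Amigo2 r = -0.42 (permutation p = 0.0345, adjusted p = 0.241), which was -0.26. Grik4 had r = -0.44 (permutation p = 0.0744, adjusted p = 0.372), which was -0.43 without the 2 farthest mice, and Prox1 r = -0.28 (permutation p = 0.193, adjusted p = 0.564), which was -0.50. The remaining members had r = 0.32 for Rgs14 (permutation p = 0.107, adjusted p = 0.421) and 0.16 for Wfs1. For C1ql2 it was 0.00, for Pou3f1 -0.08 and for Bok -0.11, so members went both ways. None of these relations to microglia genes passed adjustment. With the choroid plexus list, whose sum ranged from 1300 to 53632 normalized counts, r ran from -0.09 for Fibcd1 to 0.21 for Grik4, and for Grik4 it was 0.39 without the 2 farthest mice.

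**Figure D4:**
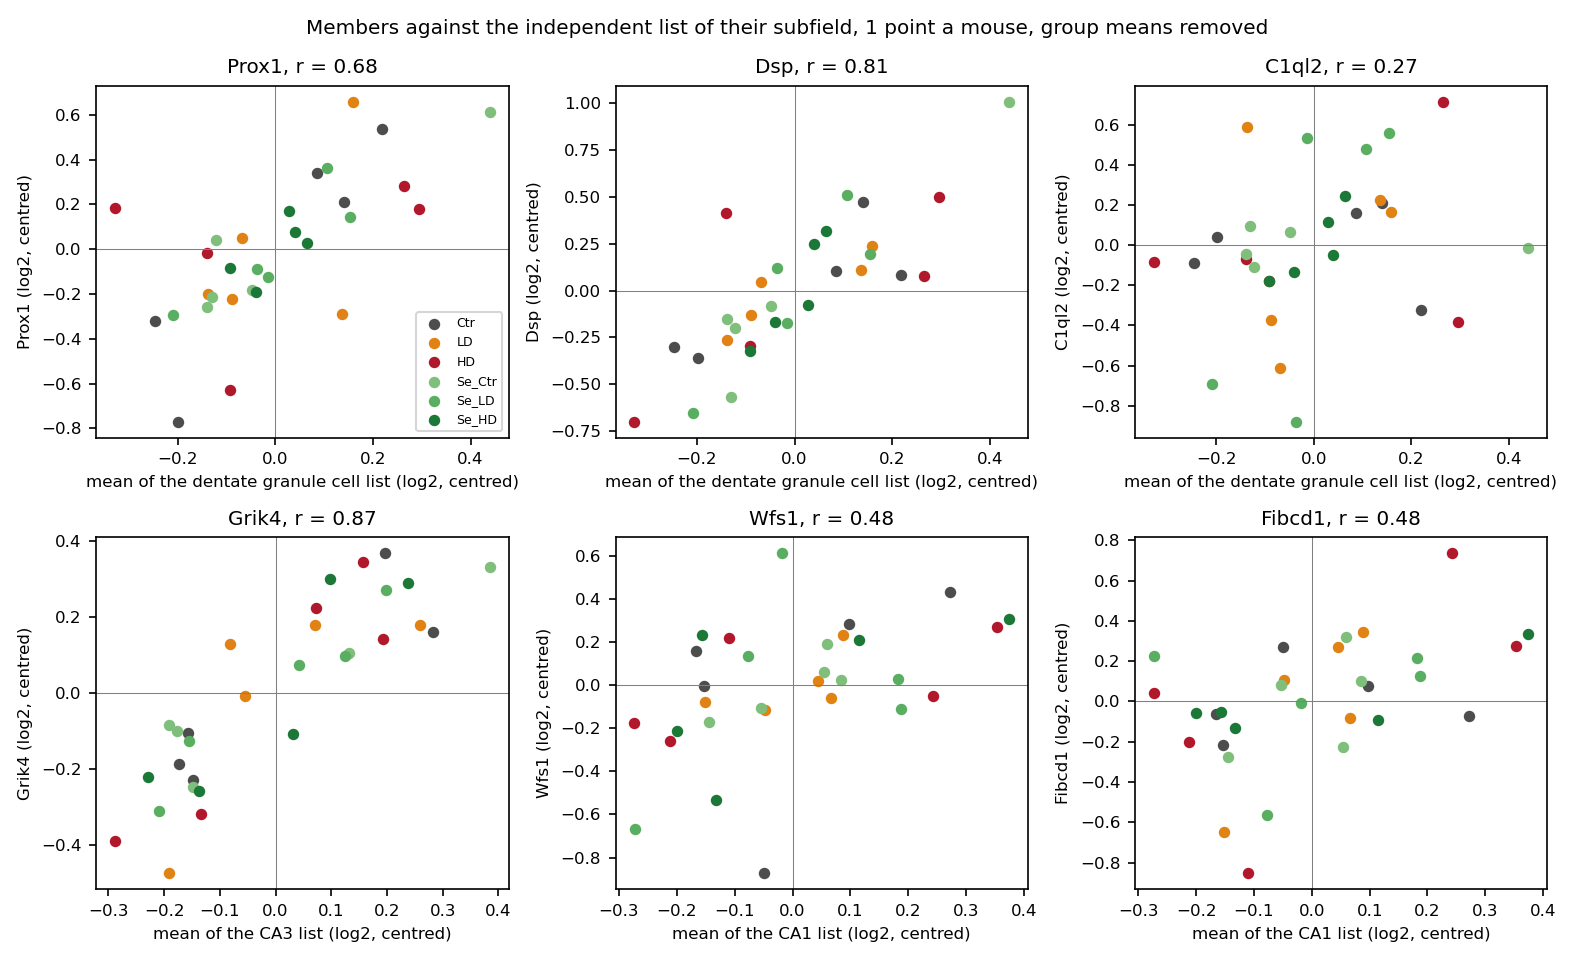
Scatter plots of 6 members (y axes) against the mean of the marker list of their own subfield (x axes), which is CA3 for Grik4. Both are log2 values with the group mean removed, 1 point for each of 30 mice, colored by group. Dsp, Prox1 and Grik4 lie along a line with r of 0.81, 0.68 and 0.87, while C1ql2 scatters with r = 0.27.

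**Figure D5:**
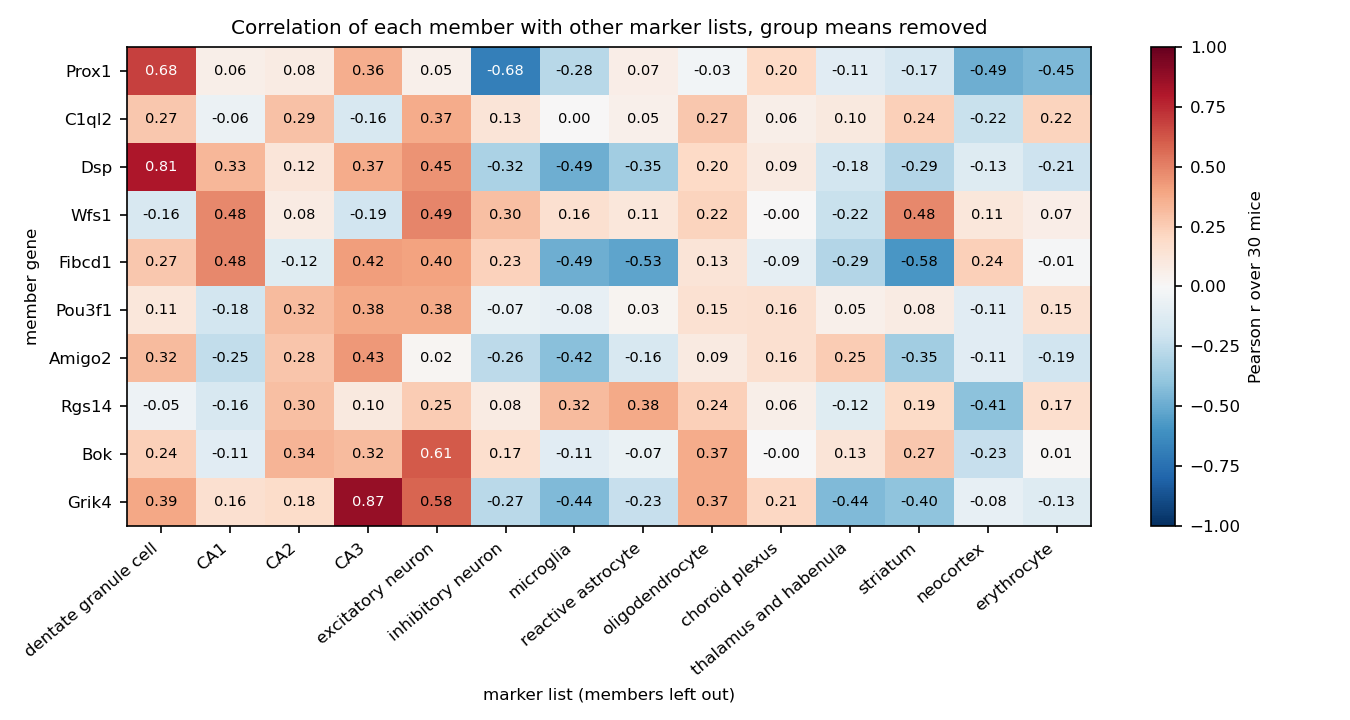
Pearson r over 30 mice between each of the 10 members (rows) and the mean of 14 marker lists (columns), group means removed, from blue (negative) to red (positive). The highest value is 0.87 for Grik4 with CA3 and the lowest -0.68 for Prox1 with inhibitory neurons.

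Among the members themselves, 45 pairs gave r from -0.36 to 0.61 with a median of 0.18. Of these, 5 pairs had a permutation p under 0.05 and 0 passed adjustment over the 45. Prox1 and Dsp had the highest r, 0.61 (permutation p = 0.00112, adjusted p = 0.0504), with rho = 0.63 (permutation p = 0.00065), and r = 0.61 without the 2 farthest mice. Rgs14 and Bok followed at r = 0.58 (permutation p = 0.00257, adjusted p = 0.0578) with rho = 0.57 (permutation p = 0.00232), and r = 0.58 without the 2 farthest mice. Next came Fibcd1 and Grik4, from different subfields, at r = 0.53 (permutation p = 0.00924, adjusted p = 0.139), with rho = 0.53 (permutation p = 0.00856) and r = 0.50 without the 2 farthest mice. Pou3f1, at its few reads, and Bok also had r = 0.53 (permutation p = 0.0124, adjusted p = 0.139), which was 0.37 without the 2 farthest mice. Pairs of one subfield had a median r of 0.22 over 12 pairs and pairs of different subfields 0.17 over 33. Without Pou3f1 these medians were 0.26 over 10 pairs and 0.15 over 26, and 3 pairs had a permutation p under 0.05. The ratio of Prox1 to Wfs1 normalized counts within a mouse had group medians between 0.512 and 0.644 and its extremes in 2 control mice, at 0.286 in Ctr mouse 1 and 1.45 in Ctr mouse 2, and without Ctr mouse 2 the highest was 0.962 in HD mouse 4. These 2 control libraries also differed in the index of GC content explained next, at 0.31 and -0.31, and the part of base composition in the ratio was not tested. The ratio of Dsp to Wfs1 was lowest in HD mouse 2, at 0.123, and highest in Ctr mouse 2, at 0.474.

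Of the members, Prox1 moved with the base composition of the libraries at the adjusted threshold. An index of GC content was made per library, as the mean log2 level of the tenth of 10830 genes with the highest transcript GC content minus that of the tenth with the lowest, and another in the same way for exon length, and 30 correlations with these and with depth were computed. Prox1 had r = -0.65 with the GC index (permutation p = 0.0013, adjusted p = 0.0375), rho = -0.56 (permutation p = 0.00766) and r = -0.60 without the 2 farthest libraries, and r = 0.66 with the length index (permutation p = 0.0025, adjusted p = 0.0375), rho = 0.58 (permutation p = 0.00745). Rgs14 had r = 0.53 with the GC index (permutation p = 0.0159, adjusted p = 0.119), rho = 0.45 (permutation p = 0.0371) and r = 0.38 without the 2 farthest libraries. Their part in the relations above was not tested beyond the regression given here. With the GC index Dsp had r = -0.11 and Grik4 r = 0.14. The length index, which had r = -0.80 with the GC index, had r = 0.39 with Dsp (permutation p = 0.0268, adjusted p = 0.134), 0.39 with Amigo2 (permutation p = 0.0203, adjusted p = 0.122), -0.42 with Wfs1 (permutation p = 0.013, adjusted p = 0.119), -0.37 with C1ql2 (permutation p = 0.0415, adjusted p = 0.142) and -0.45 with Rgs14 (permutation p = 0.0422, adjusted p = 0.142). No regression on the length index was made. After regression on the GC index, r with the dentate list was 0.70 for Prox1 and 0.82 for Dsp, and r with the CA3 list was 0.91 for Grik4. The r of Prox1 and Dsp was then 0.71, while Prox1 with the inhibitory neuron list went from -0.68 to -0.50. The regression also raised r of Prox1 with lists of other cells, from 0.05 to 0.59 for excitatory neurons, from -0.03 to 0.49 for oligodendrocytes and from 0.08 to 0.43 for CA2.

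The genes most like each member over the 30 mice were picked among the 11080 genes whose mean reached 50 normalized counts, as a description. For Grik4 they were Il16 (r = 0.90), Prkca (0.86) and Lpl (0.84). For Dsp they were Scn3b (0.82), Adcy1 (0.81) and Ccdc85a (0.80), and for Prox1 they included Sema5a (0.83) and March6 (0.80). For Wfs1 they were Grm2 (0.84), Igfbp6 (0.77) and Git1 (0.76), and for Fibcd1 Elfn2 (0.83), Camkv (0.80) and Prkcc (0.78). They stand beside the share of all genes that followed a member as closely as a set level. An r of at least 0.5 was reached by 7.89% of the 11080 genes for Prox1, 5.53% for Rgs14, 4.65% for Grik4, 2.69% for Dsp and 1.83% for C1ql2. The share was 3.47% for Fibcd1, 3.42% for Bok, 2.33% for Wfs1, 0.659% for Amigo2 and 0.307% for Pou3f1. These values were not corrected for the GC index, with which Prox1 and Rgs14 had the r farthest from 0. The part of base composition in the most alike genes was not tested.

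Among the CA2 and CA3 markers, Rgs14 was most like Vars (r = 0.84), Fam125b (0.80) and Ncln (0.78), and Bok most like Fam19a5 (0.80), Lrrn2 (0.76) and Slc8a2 (0.76). C1ql2 was most like Rasl10a (0.73), Mrpl36 (0.72) and Slc8a2 (0.69). Amigo2 and Pou3f1 had weaker neighbours, led by Vps26b (0.66) followed by Per3 (0.65) and Ptpdc1 (0.63) for Amigo2, and by Actn2 (0.66), Snrpa (0.61) and Lrfn1 (0.61) for Pou3f1. Slc8a2 was thus among the 3 nearest genes of both C1ql2 and Bok.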

How the data were processed

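Hippocampus RNA of 30 male BALB/c mice, 5 in each of 6 groups, was sequenced single-end from a stranded library. The authors trimmed reads with Trim Galore 0.4.2, aligned them with HISAT2 to NCBIM37, counted them with featureCounts, removed genes with fewer than 10 reads in all, and divided the counts by DESeq2 size factors. The deposited values are this normalized signal, and whole reads could be recovered from 100% of the values within a tolerance of 0.01 reads. Depth was 5768208 to 11510521 reads per library. Of 21412 gene IDs, 21326 were matched to a symbol.

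Tests used limma 3.58.1 in R 4.3.3 on log2 of the normalized count plus 1, with an intensity trend, over genes with a sum of at least 10. Ctr, LD and HD mice were fitted together (15 libraries, 20031 genes), the selenium groups likewise (15 libraries, 19679 genes), and contrasts across diets over 30 libraries (21383 genes), so contrasts that share a group are not independent. The p-values were adjusted by Benjamini-Hochberg over all genes tested, with a threshold of 0.05. Alternatives were tests on the recovered reads (DESeq2 1.42.0, and edgeR 4.0.16 with TMM), pseudocounts of 0.1 and 10, other filters, the library set as covariate, other sets of groups in the fit, and leaving out single mice. Leaving out Ctr mouse 2 and HD mouse 2 together, the regression on the GC index and the CA2 list without Sostdc1 were chosen after seeing the data. Correlations used log2 values minus the group mean and 100000 permutations within groups, in Python 3.11.15 with pandas 2.3.3, NumPy 2.4.6 and SciPy 1.17.1. Figures were drawn with matplotlib 3.10.9. The code was tested on simulated data.

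The 10 members and all marker lists were chosen with earlier results of these data known. All members were described, and other genes were named when their unadjusted p was under 0.05 in a comparison described, when they were the most abundant of their list, or as the 3 genes most like a member. Some genes of the lists and of those most like a member are not reported here by name.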

Additional observations from a re-analysis of the deposited data

Results flagged for a closer look

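Of 60 sets of 5 mice, 1 for each member and group, 6 held a mouse far from the other 4, measured as its gap to the nearest mouse over the range of the group, with a critical value of 0.71. Chance gives about 1 in 20 sets, or 3 of 60. Prox1 was at 1339 normalized counts in LD mouse 5, against 694 to 880 in the others (0.712), and at 1341 in Se_Ctr mouse 4, against 731 to 900 (0.723). Dsp was at 776 in the same Se_Ctr mouse 4, against 260 to 365 (0.797), and that mouse also had the highest summed level of excitatory neuron genes, 73001. C1ql2 was at 188 in HD mouse 4, against 87.2 to 109 (0.785). Fibcd1 was at 1096 in Se_HD mouse 3, against 794 to 837 (0.858). Amigo2 was at 189 in LD mouse 5, against 126 to 143 (0.728), the mouse with the far Prox1 value.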

How the results depend on the processing

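No member had an adjusted p under 0.05 in any fit, the lowest being 0.166. Of 1857 values of single members under alternatives, 1829 kept their side of the unadjusted threshold, 15 passed it newly, 13 no longer passed it and 0 reversed a called direction. In HD against Ctr mice the count of members with an unadjusted p under 0.05 was 0, and it was 1 without Ctr mouse 2 and HD mouse 2 (Wfs1) and 0 to 1 when leaving out single mice. In LD against Ctr mice it was 0, and 1 by edgeR, by DESeq2 and with the library set as covariate (Bok), and 0 to 1 when leaving out single mice. In Se_Ctr against Ctr mice it was 0, and 2 when only these groups were fitted, C1ql2 and Bok. In Se_HD against HD mice it was 1, and 0 with a pseudocount of 10, with a mean of at least 10, by edgeR, by DESeq2, with only these groups and without Ctr mouse 2 and HD mouse 2, and 0 to 1 when leaving out single mice. In Se_LD against LD mice, in the interaction for the low dose and in the test over 6 groups it was 0, and 0 to 1 when leaving out single mice. The causes were not tested. After centring on the library set, C1ql2 and Bok (r = 0.43) and Bok and Grik4 (r = 0.45) had a permutation p under 0.05.

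No paired analysis was possible by replicate number, because these numbers only name the mice of a group. The library set was used as a block instead. Its 5 sets of 6 consecutive library numbers each hold 1 library of each group, and they were inferred from the numbering, since no label names them as sets or batches. This block moved the count of members in LD against Ctr mice from 0 to 1 and no other count. Pou3f1, with 29 reads in all, allows no statement on a difference.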
